A study of Mus musculus with 2 samples.

Results

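Collecting duct spots of the kidney section labelled Vehicle were chosen by their own reads for 3 genes, Aqp2, Aqp3 and Fxyd4. A spot is a small printed area of a 10x Genomics Visium slide whose barcode marks the RNA of the several cells lying above it, and a UMI is 1 captured molecule of that RNA. Of the 676 spots in the Vehicle matrix, 321 held at least 1000 UMIs with under 10% of them from mitochondrially encoded genes and were kept. The 33 kept spots at or above the 90th percentile of the 3 genes' share of UMIs are the collecting duct spots, and the other 288 kept spots are the rest. The whole series holds 1466 spots. Per the labels, both mice were C57BL/6 and had 1 ureter tied (unilateral ureteral obstruction), their kidneys were taken 7 days later, and 1 received vehicle and the other SH045, in a study titled for inhibition of the cation channel TRPC6. One 10 µm section of fresh frozen kidney was profiled from each, so every mouse and every group is 1 section and no value below carries a test between groups. Spots of a section are not replicates, and each interval given covers counting error only, at 95%.

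The collecting duct is the last part of the renal tubule, where the final water, salt and acid content of urine is set. Its principal cells take up water through aquaporins under the control of vasopressin, and sodium through the epithelial sodium channel under the control of aldosterone. Intercalated cells lie among them, also line the connecting tubule just upstream, and move acid and bicarbonate with a vacuolar proton pump. Aqp2 encodes the vasopressin-regulated water channel of the luminal membrane, Aqp3 a water channel of the basolateral membrane, and Fxyd4 a small regulator of the sodium pump.

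Because the 3 genes picked the spots, their start-site sequences are shown to place the genes, whatever motifs they hold. Each line is the 250 bases before a start site from the RefSeq table for GRCm38.p6, written 5′ to 3′ on the gene's strand, with capitals on any match to the motifs named after them. The windows are chr15:99578806-99579055 (plus strand) for Aqp2, chr4:41098184-41098433 (minus strand) for Aqp3 and chr6:117937336-117937585 (minus strand) for Fxyd4. The Fxyd4 window lies inside the gene (chr6:117933558-117937714), before a start site that is not the gene's outermost one.
Aqp2: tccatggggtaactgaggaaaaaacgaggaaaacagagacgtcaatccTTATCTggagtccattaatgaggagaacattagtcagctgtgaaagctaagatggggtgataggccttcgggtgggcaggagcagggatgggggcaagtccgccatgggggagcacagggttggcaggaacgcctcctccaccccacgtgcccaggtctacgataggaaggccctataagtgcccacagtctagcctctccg
Aqp3: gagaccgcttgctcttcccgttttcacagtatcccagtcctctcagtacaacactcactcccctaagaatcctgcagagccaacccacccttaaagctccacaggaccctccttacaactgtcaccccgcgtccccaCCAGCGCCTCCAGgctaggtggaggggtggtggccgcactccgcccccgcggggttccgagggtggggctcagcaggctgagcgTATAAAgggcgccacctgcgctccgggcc
Fxyd4: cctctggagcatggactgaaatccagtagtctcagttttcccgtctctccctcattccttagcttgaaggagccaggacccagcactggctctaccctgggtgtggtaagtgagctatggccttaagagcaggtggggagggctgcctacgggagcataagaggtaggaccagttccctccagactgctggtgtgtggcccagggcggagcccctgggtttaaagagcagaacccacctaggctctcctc
The search covered 7 motifs, on both strands, in 19 genes of these spots: a GATA motif (AGATAA), a GRHL motif (AACCGGTT), a TFCP2L1 motif (CCAG, any 5 bases, CCAG), a CRE (TGACGTCA), a FOXI motif (TGTTTAC), an ETS motif (CAGGAAG) and a TATA box (TATAAA). The genes were picked with their values known, and 13 of them had an entry, with 14 windows in all. Besides that of Fxyd4, the Avpr2 window and 1 of the 2 Cav1 windows lay inside the gene, and the Scnn1g window overlapped the gene's start. Among those 14 windows, the GATA motif stood in 1 (Aqp2), the TFCP2L1 motif in 2 (Aqp3 and Scnn1g), the FOXI motif in 1 (Avpr2), the ETS motif in 3 (Klk1, Krt7 and Scnn1b) and the TATA box in 3 (Aqp3, Avpr2 and Cav1), while GRHL and CRE stood in 0. Over all 32851 windows of the table the shares were 9.99% for GATA, 0.116% for GRHL, 2.8% for TFCP2L1, 1.55% for CRE, 3.17% for FOXI, 10.8% for ETS and 12.4% for TATA. The other 5 of the 13 genes (Fxyd4, Atp6v1g3, Krt18, Rhcg and Foxi1) held none of the 7. No entry was found for Hsd11b2, Scnn1a, Atp6v0d2, Kcne1, Slc4a1 and Cldn8. A match is a run of letters and says nothing about binding.

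The score that chose the spots ran from 0.168% to 0.641% of a spot's UMIs with a median of 0.228%, against a median of 0.0263% in the rest. Spots at the limit were nearly alike: the last spot taken in had 26 UMIs of the 3 genes among 15514, and the first left out had 12 among 7172. Aqp2 was seen in all 33 spots, Aqp3 in 26, Fxyd4 in 27 and all 3 genes together in 23. Aqp2 had the most UMIs of the 3 in 30 spots. It gave 368 of the 564 UMIs of the 3 genes in the collecting duct spots, and also 553 of the 868 in the rest. Its level over the summed spots was 1683 CPM (counts scaled to a total of 1e+06 UMIs) against 261 CPM in the rest, with 384 against 78.9 CPM for Aqp3 and 512 against 69.9 CPM for Fxyd4. These values chose the spots and are a description only. In the rest, 209 spots also held UMIs of these genes, and the 33 chosen spots held 39.4% of the 3-gene UMIs in 9.37% of all kept UMIs.

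**Figure D1:**
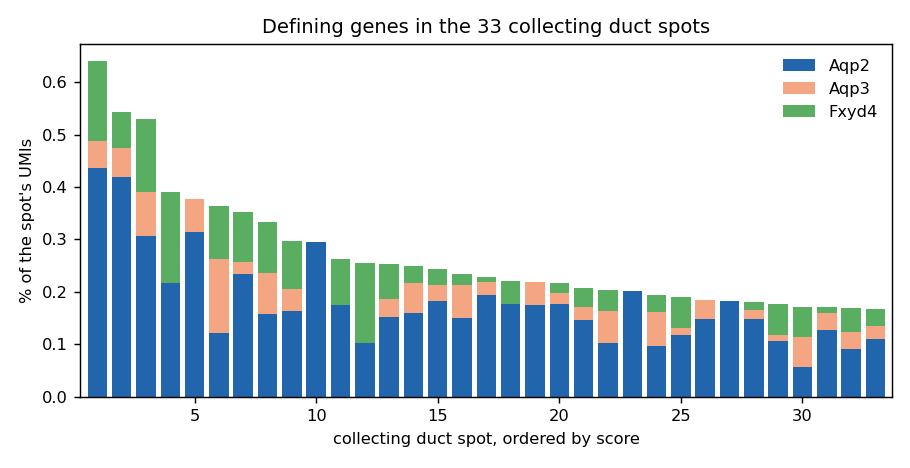
Share of each collecting duct spot's UMIs (y axis, percent) taken by Aqp2, Aqp3 and Fxyd4, stacked, for the 33 spots in order of score (x axis). The highest spot reached 0.641% and the lowest 0.168%, and Aqp2 was the largest piece in 30 of the 33.

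The collecting duct spots held 218707 UMIs in all and the rest 2115929, with medians of 5064 and 5709 UMIs per spot. The share of mitochondrially encoded UMIs had medians of 2.18% and 2.77%. Of the 355 spots left out, 342 were at or over 10% mitochondrial UMIs and 17 under 1000 UMIs, and they form 1 side of the section in the map of positions. The library labelled Vehicle held few transcripts of the tubular injury markers that obstruction is known to raise: Havcr1 and Lcn2 had 0 UMIs each in the collecting duct spots, which allows up to 13.7 CPM, and 6 each in the rest. In the SH045 section the spots chosen by the same rule had 573 CPM of Havcr1 and 1883 CPM of Lcn2. The labelled obstruction of the library could not be checked against a further sample here, so Vehicle below names the library by its label, and its values beside those of the SH045 section are no measure of treatment. Both sections used 335 barcodes in common, which are fixed positions on the slides and not shared cells.

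**Figure D2:**
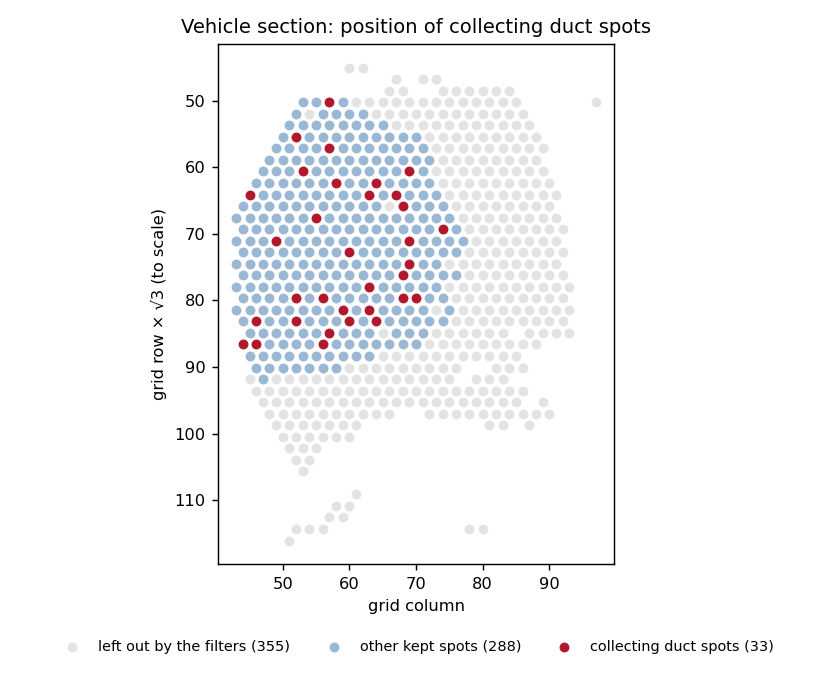
Position of every spot of the Vehicle section on the slide grid (x axis, column; y axis, row scaled to true distance), coloured by group. The 33 collecting duct spots lie scattered among the 288 other kept spots, and the 355 spots left out lie to the right and below.

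The chosen spots were scattered over the kept side of the section. Of the 188 kept neighbour positions of collecting duct spots, 8.51% were themselves collecting duct spots (4.94 to 13.5%), beside 10.3% of all kept spots. With no limit on mitochondrial UMIs, 67 spots were chosen of 659, a like share, and 14.67% of their neighbours were collecting duct spots, so that the scatter holds for the kept side alone. There were 8 touching pairs, and 17 of the 33 spots touched no other. The 4 blocks into which the kept spots were split by position held 8, 7, 8 and 10 of them. Distance to the edge of the sampled tissue differed: 22 of the 33 (66.7%) lay at least 7 grid steps inside, beside 41.0% of the rest, a limit set after the distances were seen. The part of position and of mitochondrial share in the values below was not tested.

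Genes past 1.5-fold between the collecting duct spots and the rest lay in both directions. Of the 5860 genes with at least 50 UMIs over all kept spots, called measured here, 829 (14.1%) were at least 1.5-fold higher in the collecting duct spots and 833 (14.2%) at least 1.5-fold lower, by size alone. With TMM or DESeq2 scaling over all genes in place of total counts, ratios were multiplied by 0.878 and the counts became 470 higher and 1284 lower. With the same factors taken from measured genes alone, a choice made after that result was seen, the factor was 0.963 for TMM and 0.965 for DESeq2. With at least 200 UMIs per gene, 115 genes were higher and 196 lower. Counting error is wide for genes near 50 UMIs, and its part in these shares is not given here. The median log2 ratio of all measured genes was 0.05. Higher in every one of the 4 position blocks, whatever the size of the ratio, were 505 genes (8.62%), and lower in every block 571 (9.74%).

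Principal cell genes other than the 3 used for the choice were higher in the same spots. The list summed to 3818 CPM against 1684 CPM in the rest, a ratio of 2.27 (2.10 to 2.44), and 10 of its 12 measured genes were at least 1.5-fold higher, with 0 lower, where 14.1% of all measured genes were. Its median ratio was 2.18, beside 1.04 for all measured genes. Spot by spot, the summed level ran from 455 through a median of 3412 to 9480 CPM in the collecting duct spots, and from 0 through 1236 to 7220 CPM in the rest. The 2 groups overlapped, with 32 of the 33 collecting duct spots above the median of the rest. The ratio ranged from 1.55 to 2.57 over the 4 position blocks.

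Genes of sodium uptake were among them. Hsd11b2, the enzyme that inactivates glucocorticoids so that aldosterone can act on its receptor, was at 1038 CPM against 292 CPM, a ratio of 3.55 (3.04 to 4.14), and was seen in 32 of 33 spots. In the 4 position blocks Hsd11b2 stood at 979, 602, 965 and 1451 CPM, against 212, 295, 287 and 409 CPM in the rest. All 4 blocks were therefore apart in 1 direction, and leaving out any single collecting duct spot kept the ratio between 3.31 and 3.73. The 3 subunits of the epithelial sodium channel had ratios between 2.34 and 2.53. Scnn1a had 57 UMIs and a ratio of 2.48 (1.82 to 3.34), Scnn1b 100 UMIs and 2.53 (2.01 to 3.16), and Scnn1g 43 UMIs and 2.34 (1.63 to 3.28). The ratio of Scnn1g moved with the processing, to 1.091 in thinned spots and 4.177 with the kallikrein spots described below out of the rest. Scnn1b was not higher in every part of the section, at 159 against 174 CPM in block 1.

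Other members of the principal cell list covered ammonia transport, the vasopressin receptor and the epithelial skeleton. Rhcg, an ammonia transporter of both principal and intercalated cells, was at 604 against 245 CPM, a ratio of 2.46 (2.02 to 2.98). Avpr2, the receptor through which vasopressin acts on these cells, had 18 UMIs and a ratio of 1.78 (1.01 to 2.96). Kcnj1, the potassium channel ROMK, which the thick ascending limb also makes, was at 457 against 360 CPM, a ratio of 1.27, and Krt8 had 1.34, so these 2 stayed inside 1.5-fold. Gata3, a transcription factor of the duct, had 1 UMI and Elf5 had 0, so that neither could be read at this depth.

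Of 3 measured keratins of simple epithelia, 2 were at least 1.5-fold higher, where 14.1% of all measured genes were, and Krt8, given above, was not. Krt18 had 33 UMIs against 69 in the far larger rest, a ratio of 4.63 (2.96 to 7.10), and Krt7 was at 832 against 249 CPM, a ratio of 3.34 (2.81 to 3.96). Krt7 was at 820, 392, 801 and 1150 CPM in the 4 blocks against 204, 366, 209 and 296 CPM, so that block 2 was nearly level. Krt23, which falls under the 50-UMI limit and is named after its values were seen, had 7 UMIs in 6 collecting duct spots and 1 in the rest. Krt19 and Krt20, keratins of urothelium and injured tubule, had 0 UMIs in the collecting duct spots.

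Intercalated cell genes, of which none took part in the choice, were higher too. The list shared by all intercalated cells summed to 4453 CPM against 1796 CPM, a ratio of 2.48 (2.31 to 2.66). Of its 10 measured genes 9 were at least 1.5-fold higher and 0 lower, beside 14.1% and 14.2% of all measured genes. The level ran from 988 through a median of 3903 to 10170 CPM in the collecting duct spots and from 0 through 1167 to 8920 CPM in the rest. Again 32 of the 33 collecting duct spots stood above the median of the rest, and 31 did so for both lists. The block ratios ranged from 1.59 to 3.95.

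Subunits of the proton pump led this list. Atp6v1g3, a subunit made in intercalated cells, had 427 UMIs and stood at 1952 against 609 CPM, a ratio of 3.20 (2.87 to 3.58). Its levels in the 4 blocks were 2751, 994, 1897 and 2070 CPM against 459, 639, 623 and 760 CPM, with block 2 least apart. Atp6v0d2 had a ratio of 3.73 (2.63 to 5.23) and Atp6v1b1 2.67 (1.93 to 3.62), while Atp6v0a4 had 1.10 (0.719 to 1.61). Car2 and Car12, carbonic anhydrases that supply protons and bicarbonate, had ratios of 1.97 (1.65 to 2.35) and 2.51 (2.0 to 3.14). Foxi1, the transcription factor that specifies intercalated cells, had 29 UMIs and a ratio of 2.40 (1.54 to 3.63).

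Genes of both kinds of intercalated cell were higher. Type A cells secrete acid and type B cells secrete bicarbonate. The type A list had a ratio of 2.93 (2.20 to 3.85), with 3 of 3 measured genes past 1.5-fold, among them Slc4a1, the basolateral chloride and bicarbonate exchanger AE1, at 3.47 (2.26 to 5.22). The type B list had a ratio of 2.92 (2.44 to 3.49), with 4 of 4: Slc4a9 at 4.18 (3.01 to 5.74), the kinase-receptor gene Insrr at 3.16 (2.05 to 4.75), Slc26a4, the luminal exchanger pendrin, at 2.37 (1.78 to 3.10), and Tmem117 at 2.07 on 9 UMIs. Over all measured genes, 14.1% were at least 1.5-fold higher. No order between the 2 kinds can be read, since their intervals overlap over most of their length.

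**Figure D3:**
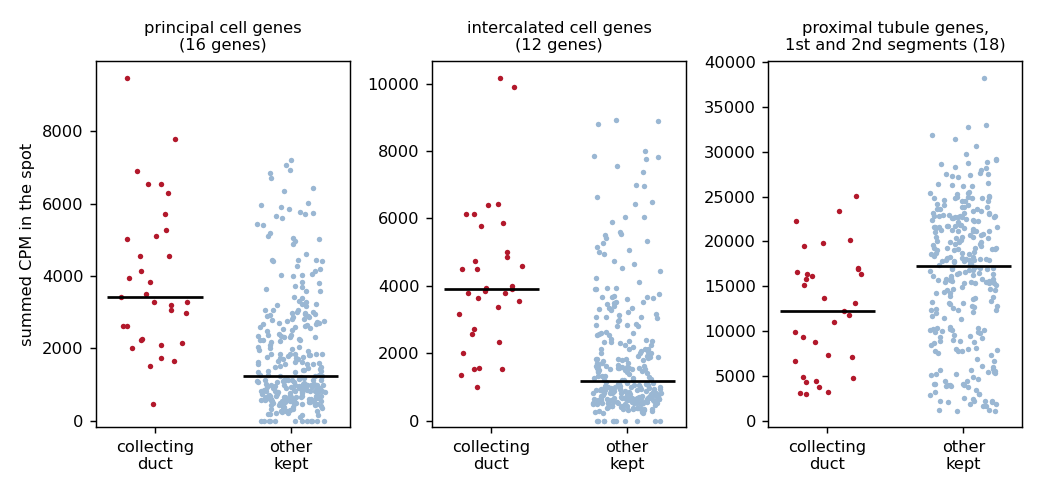
Summed CPM per spot (y axes) of the principal cell, intercalated cell and early proximal tubule lists in the 33 collecting duct spots and the 288 other kept spots; each point is a spot, spread sideways for view, and each bar a median. Medians were 3412 against 1236 CPM, 3903 against 1167 CPM and 12265 against 17257 CPM, and the groups overlap in all 3 panels.

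The lists were also set against each other among the 33 spots themselves. Principal and intercalated sums went together (Spearman's rho 0.53 over 33 spots), and principal and early proximal sums went opposite ways (rho -0.68). The points share 1 library, are shares of the same total and differ in depth, so both are descriptions with no test. The spot with the highest principal sum, 9480 CPM, was also the one with the highest score, and its early proximal sum was 4868 CPM. The score went with the intercalated sum at rho 0.11 and with the principal sum at rho 0.27 within the 33 spots, whose range of score the choice had cut, and at 0.50 and 0.43 over all 321 kept spots.

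Genes of sealing and signalling were higher in part. Of the 9 measured claudin and junction genes, 5 were past 1.5-fold and 0 were lower, beside 14.1% and 14.2% of all measured genes. The list's summed ratio was 1.35 (1.23 to 1.47). The cadherin gene Cdh16 gave 328 of its 567 UMIs in the collecting duct spots, so the sum mostly followed that gene. Cldn4 and Cldn8, claudins of the collecting duct's chloride path, had ratios of 3.39 (1.96 to 5.65) and 3.28 (2.25 to 4.68). Cldn2 and Cldn10, made in proximal tubule and in thick limb and proximal tubule, were at 0.787 and 0.718. Among the 8 measured genes of aldosterone and vasopressin signalling, 4 were higher and 1 was lower: Sgk1, an aldosterone-induced kinase, at 1.93 (1.40 to 2.61), Nedd4l, a ubiquitin ligase that Sgk1 restrains, at 2.32 (1.42 to 3.65), Ptges and Pde1a at 1.55 and 1.58 with intervals that include 1, and Nr3c1 lower on 3 UMIs. Nr3c2, the aldosterone receptor, had 2 UMIs and could not be read. Of 8 measured duct transcription factors 3 were past the limit that 14.1% of all measured genes passed, namely Tfcp2l1 at 2.36 (1.81 to 3.06), Gata2 at 2.73 (1.36 to 5.15) and Hoxb7, a gene of the ureteric bud lineage, at 1.90 (0.933 to 3.57), an interval that includes 1.

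Sodium pump and potassium channel genes, which every tubule segment uses, summed to a ratio of 0.927 (0.895 to 0.959), with 3 of 14 higher and 2 lower, near the background of 14.1% and 14.2%, and with no mitochondrial limit the sum stood at 1.125. Kcnq1, a potassium channel, was higher at 2.31 (1.60 to 3.26), and Kcnj16 and Kcnj15 were lower at 0.631 and 0.657. Kcne1, the partner subunit of Kcnq1, had the highest ratio of the genes named by rule apart from the 3 that chose the spots, 5.37 (3.65 to 7.83), from 45 UMIs against 81. Its levels in the 4 blocks were 212, 181, 241 and 159 CPM against 28.7, 24.8, 38.0 and 62.1 CPM, and 22 of the 33 collecting duct spots had a UMI of it beside 65 of the 288 in the rest. With every spot thinned to 1000 UMIs the shares of spots with Kcne1 were 21.2% and 3.82%, against 66.7% and 22.6% unthinned.

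Genes with the highest ratios after Kcne1 included membrane and barrier genes. Cav1, the caveolae coat protein, had a ratio of 5.03 (3.01 to 8.24), and Plet1, a surface protein of placental and epithelial cells, 4.07 (2.42 to 6.67). Mal2, a protein of apical sorting, had 3.82, Spink8 3.69, Smim5 3.66, Tpd52l1 3.58, Ppat 3.54, Pdcd4 3.52 and Gstm2 3.47, each higher in all 4 blocks. Genes at this end were named by that rule and by size, so their place is no test. The lncRNA Gm43305, outside the rule and named after its values were seen, was at 407 against 73.7 CPM, a ratio of 5.52 (4.21 to 7.21). The genes at the low end, Smpd2, Dnajc13, Scly, Mapt, Plekhm2, Mpv17l, Usp5, Fads2, Hacd2 and Galnt1, had 3 to 8 UMIs each in the collecting duct spots and ratios from 0.167 to 0.326, and Scly and Mapt turned to the other side when spots were thinned, at 1.745 and 1.309.

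Across all 321 kept spots, thinned to 1000 UMIs each, 1465 genes were ranked by how they went with the score. Atp6v1g3 came first with Spearman's rho 0.29, followed by Aif1l, Ckmt1, Uqcrq, Rhcg, Hsd11b2, Car2 and Atp5h, down to 0.19. All of these are weak in sparse counts from 1 library and only describe the ranking. Aif1l and Ckmt1 had ratios of 2.52 (2.03 to 3.11) and 2.65 (2.07 to 3.35), while Uqcrq, a respiratory chain subunit, had 1.11.

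Other nephron segments were present in the same spots at levels that differed by segment. Early proximal tubule genes summed to 11874 CPM against 16595 CPM, a ratio of 0.716 (0.687 to 0.745), with 7 of 17 measured genes at least 1.5-fold lower and 0 higher, where 14.2% of all measured genes were lower. Slc34a1, the proximal phosphate transporter, still had 752 UMIs and a ratio of 0.726, and was seen in all 33 spots. Straight proximal genes had 0.656 (0.595 to 0.722), with 4 of 8 lower. Over the 4 position blocks the straight proximal ratio ranged from 0.490 to 1.16, so its direction was not the same in every block. The early proximal ratio ranged from 0.648 to 0.937. Thick ascending limb genes had 1.23 (1.16 to 1.31). Umod, the thick limb's main secreted protein, was at 2524 against 1969 CPM. Distal convoluted tubule genes had 0.988 (0.899 to 1.08). In a bulk sum such as a spot, fewer cells of a type and less RNA per cell cannot be told apart.

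Defining genes of the inner medullary duct were at or near 0. Of the 7 genes of the inner medullary duct list, Slc14a2 (a urea transporter), Fxyd3 and Nts had 0 UMIs in all kept spots, and Aqp4 had 3 UMIs in the collecting duct spots and 6 in the rest. The 2 measured genes of that list, Tspan8 and Crip1, which other cells also make, had ratios of 2.89 (1.94 to 4.20) and 1.70 (1.19 to 2.38). Osmolyte and tonicity genes, several of which rise with medullary salt, summed to 0.903 (0.821 to 0.991). Sord gave 228 of the list's 485 UMIs in the collecting duct spots and Clu 168, so the sum mostly followed these 2 genes. Slc5a3, Akr1b3 and Nfat5 had only 6, 14 and 3 UMIs there. Of the genes on this list, Slc6a6 and Cryab were past 1.5-fold, Cryab at 1.93 (1.21 to 2.99).

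The connecting tubule list gave a summed ratio of 0.785 (0.763 to 0.807), which rested on a single gene. Klk1, tissue kallikrein, was at 10402 against 18321 CPM, a ratio of 0.568, but the medians of single spots were 5005 CPM in the collecting duct spots and 4721 CPM in the rest. The 33 spots with the highest Klk1 share held 56.4% of all kept Klk1 UMIs, and without them in the rest the ratio was 1.25. Its direction also turned with other choices, to 1.759 with no mitochondrial limit, 1.114 at the 80th percentile and 1.24 with Fxyd4 left out of the score. The summed ratio of the list turned with it, to 1.629, 1.224 and 1.399 under those choices and to 1.541 without the kallikrein spots. Calb1, the calcium buffer, had a ratio of 1.23 (1.10 to 1.38) and S100g, a calcium-binding protein, 1.10 (1.06 to 1.15). Without the kallikrein spots in the rest both passed 1.5-fold, at 1.782 and 1.913, while Calb1 was at 0.8797 with the 95th percentile of the score and S100g at 0.7903 with Aqp2 left out of it, so neither has a settled direction.

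Those kallikrein spots, in a comparison added after the values were seen, shared several of these genes with the collecting duct spots. None of the 33 collecting duct spots was among the 33 kallikrein spots, while 9 were at or above the 90th percentile of kept spots by intercalated genes, 5 by thick limb genes and 2 by distal convoluted genes. These are 0%, 27.3%, 15.2% and 6.06% of the 33, where each of these parts holds 10.3% of all kept spots. The thick limb and distal convoluted overlaps lie near that share, and no overlap was tested. Both groups had like levels of Hsd11b2 (1038 and 1003 CPM), a ratio of 1.03 (0.860 to 1.24), and of Krt7 (832 and 715 CPM). Kallikrein spots were the higher in the principal cell list (4589 against 3818 CPM, ratio 0.832), the shared intercalated list (5385 against 4453 CPM, 0.827) and Scnn1b (638 against 457 CPM). The 3 choosing genes, which fix this contrast in part, summed to 2579 CPM in the collecting duct spots and 613 CPM in the kallikrein spots.

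Among the genes lower in the collecting duct spots were some of calcium transport, picked here after their values were seen. S100g was at 11454 against 43893 CPM, a ratio of 0.261 (0.25 to 0.273), Calb1 at 0.369 (0.325 to 0.416), and Slc8a1, the sodium and calcium exchanger, at 0.284 (0.211 to 0.378). Genes of other functions were as low: Clu was at 0.261, Wnk1 at 0.375, Spp1 at 0.380 and Kl at 0.395. Higher in the collecting duct spots were Kcne1 at 2.30 (1.35 to 4.03), Krt18 at 2.06 (1.13 to 3.89) and Car12 at 1.63 (1.19 to 2.25). Of 1418 genes measured in this contrast, 277 (19.5%) were at least 1.5-fold higher in the collecting duct spots and 87 (6.14%) lower. All 13 measured early proximal genes were past the limit on the higher side, with a summed ratio of 2.50 (2.33 to 2.68), and so were 4 of 7 thick limb genes, among them Umod at 4.57 (3.78 to 5.55). Klk1 alone took 9.4% of all UMIs of the kallikrein spots, and its part in these ratios was not tested.

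**Figure D4:**
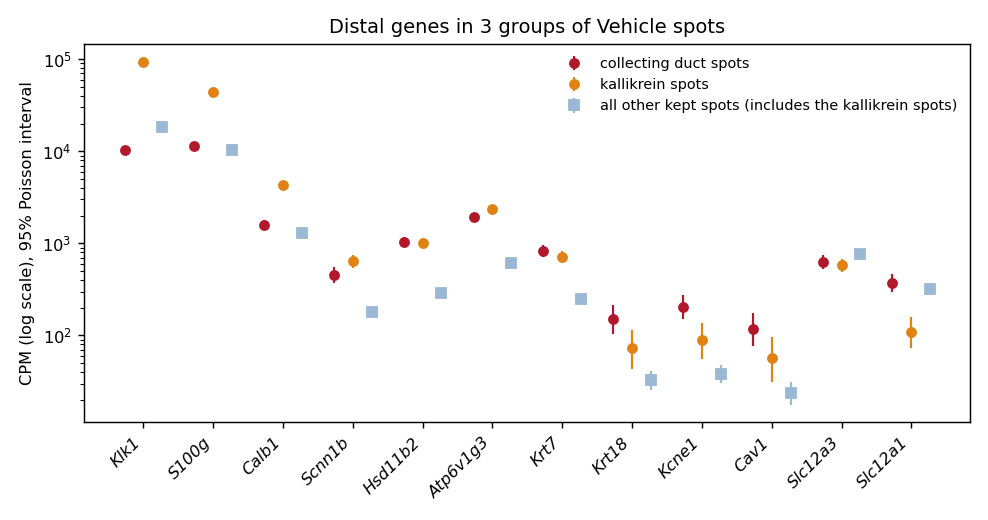
Level of 12 genes (x axis) in CPM on a log axis (y axis) in the 33 collecting duct spots, the 33 kallikrein spots and all 288 other kept spots, which include the kallikrein spots; bars are exact Poisson 95% intervals. Klk1, S100g and Calb1 were highest in the kallikrein spots, Hsd11b2 and Krt7 were alike in the first 2 groups, and Slc12a1 was lowest in the kallikrein spots.

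Genes of cells outside the tubule differed by list. Podocyte genes summed to 133 against 321 CPM, a ratio of 0.413 (0.274 to 0.598), with 4 of 4 measured genes lower and Nphs1 and Synpo at 0 UMIs. The spots' own medians did not differ that way, at 87.8 CPM in the collecting duct spots and 83.0 CPM in the rest, with 17 of the 33 above the median of the rest, whose highest spot reached 10438 CPM. The podocyte ratio was 0.9169 at the 80th percentile of the score and 1.13 with no mitochondrial limit. Endothelial genes had 0.736 (0.632 to 0.854), with 5 of 12 lower, beside 14.2% of all measured genes. Fibroblast genes, at 1.03 (0.838 to 1.26), and matrix genes, at 1.06 (0.952 to 1.18), had intervals that include 1. The macrophage list had 1.32 (1.12 to 1.54), and 90 of its 179 UMIs came from Cd74, an antigen-presentation gene, at 1.58 (1.25 to 1.98), while Csf1r, with 2 UMIs, and C1qa, with 8, were lower and Adgre1 had 2. Urothelial genes had 1 UMI in all, T and NK cell genes 3, neutrophil genes 8 and haemoglobin and erythroid genes 0. Those few UMIs give no level.

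The injured tubule list, which shares Krt18 and Krt8 with other lists here, differed gene by gene. It summed to 3498 against 2788 CPM, a ratio of 1.25 (1.16 to 1.35), with 4 of 14 measured genes past 1.5-fold and 1 lower, beside 14.1% and 14.2% of all measured genes, and the sum stood at 0.9872 in thinned spots. The 4 were Krt18, Lgals3, Cd24a and S100a11. Lgals3, galectin 3, which intercalated cells also make in healthy kidney, had 3.08 (2.38 to 3.95), Cd24a 2.25 (1.64 to 3.02) and S100a11 1.58 (1.07 to 2.28). Spp1 and Clu, which rise in injured tubules, had 1.17 (1.01 to 1.34) and 1.04 (0.884 to 1.22). Of the 28 genes, 8 had 0 UMIs in the collecting duct spots.

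Summed levels of energy genes were near those of the rest. Respiratory chain genes encoded in the nucleus summed to 1.14 (1.12 to 1.17), with 0 of 24 past either limit, and mitochondrially encoded genes to 0.939 (0.915 to 0.963). Glycolysis genes had 1.09 (1.05 to 1.13), which became 0.9567 with TMM and 0.9571 with DESeq2 factors, with 4 of 16 higher beside the background of 14.1%, among them Slc2a1, the basolateral glucose transporter, at 2.23 (1.32 to 3.62), Hk1 at 2.02 (1.36 to 2.92) and Pkm at 1.56 (1.32 to 1.83). Fatty acid oxidation genes had 0.911 (0.853 to 0.971), with 0 of 18 past either limit.

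The same rule in the SH045 section took 77 of 768 kept spots, with a median of 23938 UMIs. The sections differ in depth and are 1 each, so their values stand side by side and no difference between them is drawn. There 12992 genes were measured, 5.18% of them at least 1.5-fold higher and 7.81% lower. The principal cell list had a ratio of 1.84 (1.79 to 1.89) beside 2.27, with 13 of 16 measured genes past the limit and 0 lower. Hsd11b2 had 4.64 (4.31 to 5.0) beside 3.55, Scnn1b 2.75 (2.43 to 3.10) beside 2.53, and Rhcg 2.83 (2.44 to 3.28) beside 2.46. The shared intercalated list had 1.63 (1.55 to 1.71) beside 2.48, at 975 CPM in the SH045 collecting duct spots and 4453 CPM in those labelled Vehicle. Krt18 and Krt7 had 1.47 (1.35 to 1.60) and 1.65 (1.54 to 1.76) beside 4.63 and 3.34, and the thick limb list 1.96 (1.93 to 2.0) beside 1.23. Kcne1 was past 1.5-fold in both, at 3.45 (2.26 to 5.13) in the SH045 section. There the 15 genes named for the highest Vehicle ratios ran from 0.920 (Ppat) to 4.64 (Hsd11b2). The 10 named for the lowest ran from 0.762 (Fads2) to 1.36 (Mpv17l), so none of them was 1.5-fold lower in that section. The macrophage list had 0.794 (0.775 to 0.814) beside 1.32.

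**Figure D5:**
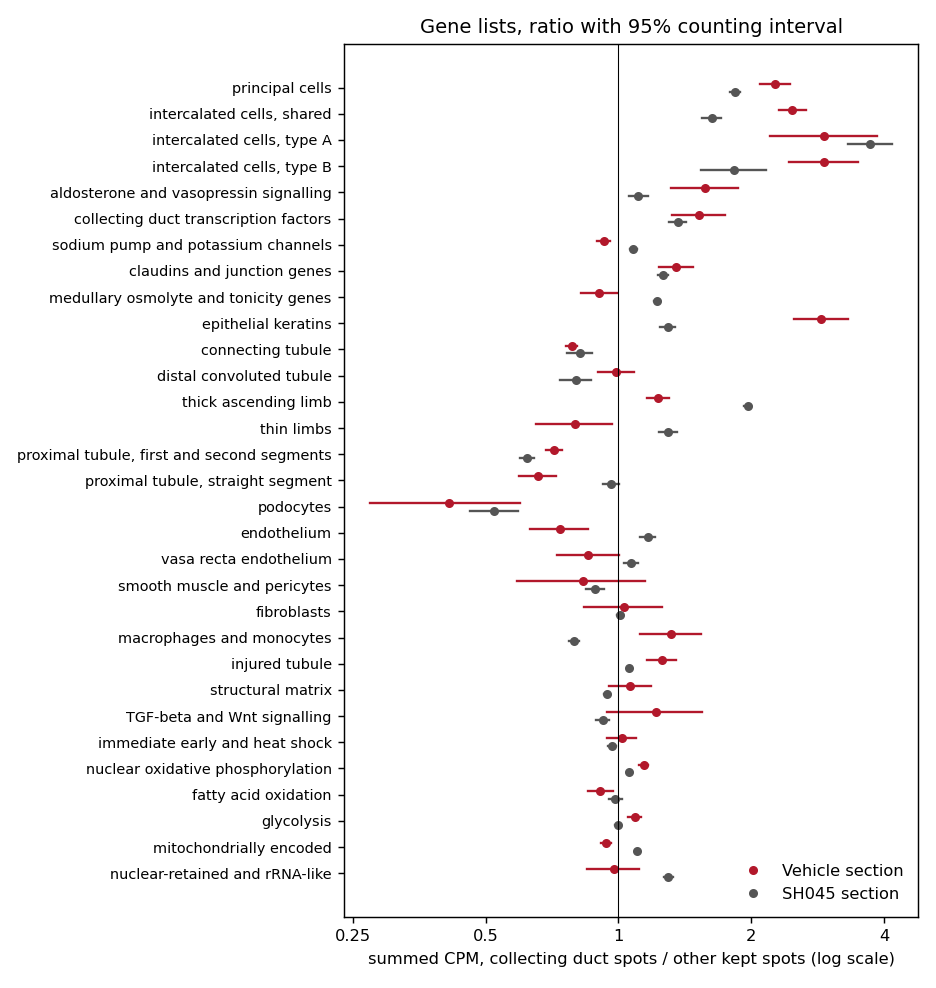
Ratio of summed CPM in collecting duct spots over other kept spots (x axis, log scale) with 95% counting intervals for gene lists with at least 3 measured genes (y axis), in the section labelled Vehicle and by the same rule in the SH045 section. In the Vehicle section the principal, intercalated and keratin lists lie past 2 and podocyte genes lie at 0.413.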

How the data were processed

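Members, gene lists and contrasts were chosen with earlier results of these data known. Gene counts (UMIs per gene and spot, not normalized) were deposited by the authors, made with Space Ranger 2.0.1 per the file headers and with build mm10 per the submitters' processing notes; no source used here gives further settings. Samples were grouped by the treatment in the labels. With 1 section a group no test was possible. Counts were summed over spots and scaled to 1e+06 (CPM). CPM have exact Poisson intervals, ratios exact conditional binomial intervals and shares Clopper-Pearson intervals, at 95%. They cover counting error only. Genes named were the defining genes, measured members of the collecting duct lists, the 3 of highest level and any at least 2-fold higher in other lists, the 15 highest and 10 lowest ratios among genes with at least 50 UMIs in all, 50 CPM in the higher group and 1 direction in all 4 position blocks (without mitochondrial, ribosomal, haemoglobin, immunoglobulin and predicted genes), and the 8 of highest rho in thinned spots among genes seen in at least 10% of them. Others are named for their role, after their values were seen. A count of 0 allows 3 counts. Positions matched RefSeq for 459 of 473 listed genes. Ratios and intervals were checked on simulated Poisson sums, which hold no variation between spots and no choice by score. Alternatives covered spot filters, the percentile, each defining gene, scaling (edgeR 4.0.16, DESeq2 1.42.0), the rest, blocks, thinning and gene minimums. Python 3.11.15, numpy 2.4.6, scipy 1.17.1 and R 4.3.3 were used. Spot images and scale factors were not used here. Some genes that the naming rule takes are not reported here.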

Additional observations from a re-analysis of the deposited data

Results flagged for a closer look

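The 3 defining genes were also present in the 355 spots that the filters left out, at 412 CPM (385 to 442) where a count of 0 would allow 1.51 CPM. The level in the rest of the kept spots was 410 CPM. Of the left-out spots 2 reached the score of the collecting duct spots. They are noted because no comparison in the report uses those spots.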

How the results depend on the processing

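Over 27 alternatives the 5 main results gave 123 values, of which 36 moved. A turn to the other side was defined only for the principal and intercalated ratios, and 0 were seen. The principal cell ratio of 2.27 became 1.828 without Aqp2 in the score, 2.494 without Fxyd4, 2.099 with equal weight per spot, 1.991 with TMM and with DESeq2 factors, 1.832 in thinned spots and 2.933 with kallikrein spots out of the rest (an alternative chosen after seeing the data). The intercalated ratio of 2.48 became 1.94, 2.762, 2.207, 2.178 (TMM), 2.179 (DESeq2) and 3.366 under those same settings in order, leaving thinning aside, and 2.292 at 2500 UMIs per spot and 2.181 without block 1. Genes higher and lower numbered 829 and 833. With TMM or DESeq2 factors there were 470 and 1284, with a rest not touching a collecting duct spot 423 and 452, thinned 128 and 176, at 20 UMIs per gene 1685 and 1626, at 200 UMIs 115 and 196, at 1 UMI 3384 and 5200, and at 2-fold 227 and 324. The higher genes numbered 1465 with no mitochondrial limit, and the lower ones 441 at the 80th percentile. The neighbour share of 8.51% became 14.67% with no mitochondrial limit, and, where the share of spots chosen changes too, 17.17% at the 80th percentile and 4.167% at the 95th. In the main setting it lay under the share of spots chosen (10.28%). It lay over that share with no mitochondrial limit (10.17% chosen), at 11.58% without Fxyd4, 10.64% without Aqp3 and 11.11% without block 1 (10.42% chosen). In every other setting it lay under it. Factors from measured genes alone, also added after seeing the data, moved none of these 5. A reversal is counted here only for a value past 1.5-fold that then lay on the other side of 1. Lists gave 804 values, of which 153 moved and 5 reversed: podocytes (1.13, no mitochondrial limit), neutrophils (0.9447 at the 80th percentile, 0.5814 without block 4) and T and NK cells (0.8904 by spot means, 0.6976 without block 4), the latter pair on few UMIs. Genes gave 1196 values, of which 150 moved and 7 reversed: Klk1 (1.759, no mitochondrial limit; 1.114, 80th percentile; 1.24, without Fxyd4; 1.245, without kallikrein spots), Mapt (1.063 by spot means, 1.309 thinned) and Scly (1.745 thinned). Counting every value on the other side of 1, there were 58 in 19 lists and 21 in 8 genes, among them S100g, Calb1, Uqcrq, Slc12a3 (1.015 thinned) and Slc12a1 (0.891 at the 80th percentile). The cause was not tested. Keeping flagged tissue spots alone changed nothing, since every kept spot was flagged. No paired analysis was possible because each group is 1 section. Depth limits all genes named with under about 10 UMIs.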
